A study of Mus musculus with 34 samples.

Results

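Bone marrow-derived dendritic cells (BMDCs) carry some p65 on chromatin before any bacterial stimulus, and the sites described here are those at which it was seen both before and after LPS. They were selected on the p65 ChIP-seq peak lists of unstimulated (WT) and LPS-stimulated (WTLPS) cells with CTCF: a WT p65 peak was taken when at least 1 bp of it was overlapped by a WTLPS p65 peak. Of the 781 WT peaks, 731 met this rule and 50 did not. They met 726 of the 5465 WTLPS peaks, and the remaining 4739 WTLPS peaks, which no WT peak overlapped, are called induced sites. Since p65 in WT and WTLPS chose the sites, its levels there are given as a description, while p65 in CTCF-deficient cells, cohesin, histone marks, CTCF, STAT5, position and sequence did not enter the choice.

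The cells came from bone marrow of 8-week-old C57BL/6 mice that carried a tamoxifen-inducible Cre, CreER, either alone (CTCF-WT) or with loxP-flanked alleles of Ctcf (CTCF-KO). All cultures grew for 6 days with GM-CSF, received 4-OH tamoxifen on the first day, so that the controls were exposed to it as well, and were enriched for CD11c+ cells. LPS, the bacterial ligand of the receptor TLR4, was given at 100 ng/ml for 3 h in WTLPS and KOLPS, and KO denotes CTCF-KO cells without it. STAT5 alone was profiled, in WT and KO, after GM-CSF was added again for 15 min. Each antibody and condition has 1 peak list, so no comparison has replicates and no p-value is given. Intervals in parentheses are 95% intervals (Wilson for a share, Newcombe for a difference of shares) and cover counting error over sites only. The interval for KOLPS against KO on the same sites is instead a normal approximation from the sites that changed.

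An H3K4me3 peak lay at the promoters of all 10 dendritic and myeloid marker genes examined in each condition, among them Itgax, which encodes CD11c, and at those of the 3 macrophage markers Csf1r, Adgre1 and Mertk, which these lists do not separate from dendritic cells. None lay at the promoters of the T cell genes Cd3e, Cd3d and Cd8a. An H3K4me3 peak lay at 1 of 3 erythroid promoters in each condition (Klf1, not Gata1 or Hbb-bt), and at 1 of 4 neutrophil promoters (S100a8, not Elane, Mpo or Ly6g). The fragments behind each p65 summit were recovered from its fold enrichment and p-value. The p65 libraries covered a background base with 0.713 fragments in WT, 0.855 in WTLPS, 0.705 in KO and, after LPS, 0.817 in KOLPS, and the weakest peak had 7, 6, 7 and 7 fragments. The KO and KOLPS lists held 504 and 1752 peaks. A site without a peak may thus still carry p65 below what these libraries could show. The cells were profiled in bulk, so that fewer cells with p65 at a site and less p65 per cell cannot be told apart, and 23.7% of WT CTCF peaks were still overlapped by a KO CTCF peak.

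p65, or RelA, is a subunit of NF-κB. In resting cells most of it is held in the cytoplasm by inhibitors of the IκB family. Signals from TLR4 lead to degradation of these inhibitors, and NF-κB then enters the nucleus, binds short sites rich in G at one end and C at the other, and activates inflammatory genes together with genes for its own inhibitors. Cohesin, of which SMC1 is a core subunit, holds DNA loops and is stopped along chromatin by CTCF, but is also found at active enhancers.

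The following windows span 50 bp to either side of the WT p65 summit (mouse genome GRCm38, read from RefSeq, plus strand), with matches to the NF-κB consensus in capitals. The first 5 carried p65 in KO and KOLPS and the last 5 in neither. Both sets were taken from the sites described below with windows that hold a match put first and the stronger site in WT before the weaker, to show where matches lie around a summit.
114990 bp from Cd47, chr16:49970585-49970685: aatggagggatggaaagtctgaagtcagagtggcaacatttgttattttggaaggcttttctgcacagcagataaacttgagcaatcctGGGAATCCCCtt
26934 bp from Ets2, chr16:95728959-95729059: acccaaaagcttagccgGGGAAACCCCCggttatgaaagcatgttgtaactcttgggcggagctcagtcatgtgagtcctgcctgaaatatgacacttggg
Skil promoter, chr3:31093823-31093923: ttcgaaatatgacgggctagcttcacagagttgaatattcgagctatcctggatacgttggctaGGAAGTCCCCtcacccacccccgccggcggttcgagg
B2m promoter, chr2:122147528-122147628: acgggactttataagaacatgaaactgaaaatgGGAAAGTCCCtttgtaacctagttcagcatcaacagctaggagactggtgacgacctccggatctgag
Birc3 promoter, chr9:7872999-7873099: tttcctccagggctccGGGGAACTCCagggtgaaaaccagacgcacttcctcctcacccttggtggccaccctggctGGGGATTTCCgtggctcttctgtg
Rbpms intron, chr8:33902588-33902688: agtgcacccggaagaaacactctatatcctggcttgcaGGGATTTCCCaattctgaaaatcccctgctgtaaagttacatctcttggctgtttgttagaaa
Ier5 promoter, chr1:155098051-155098151: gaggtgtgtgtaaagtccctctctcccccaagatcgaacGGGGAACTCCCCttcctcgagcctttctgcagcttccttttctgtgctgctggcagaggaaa
H2-K1 promoter, chr17:34000393-34000493: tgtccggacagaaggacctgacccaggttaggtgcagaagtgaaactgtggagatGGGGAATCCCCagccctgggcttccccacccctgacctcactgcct
Tnfsf15 promoter, chr4:63745337-63745437: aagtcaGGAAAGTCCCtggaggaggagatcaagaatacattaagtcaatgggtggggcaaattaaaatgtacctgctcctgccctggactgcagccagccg
Tiam1 intron, chr16:90112917-90113017: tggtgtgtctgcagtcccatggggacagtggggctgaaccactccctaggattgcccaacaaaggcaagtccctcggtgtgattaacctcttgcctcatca
The Ets2 window holds 2 overlapping matches, the Birc3 window 2 separate ones, the Ier5 window 3 overlapping ones and the H2-K1 window 2, while the Tiam1 window, at the strongest site of its kind, holds none. Since matches were preferred, the windows do not show how often sites of either kind hold one, which the shares over all sites do.

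Over all 731 sites, 236 (32.3%, 29.0 to 35.8%) held an NF-κB match within 50 bp of the WT summit, whereas 1.78% of 1462 windows 1 kb away did. At induced sites 544 of 4739 (11.5%) held one, a difference of 20.8 points (17.4 to 24.4), and over the peaks of all 4 p65 lists 16.1% did. The match was as frequent at the 50 WT peaks without a WTLPS peak, 20 of which held one (40%, 27.6 to 53.8%). Over all WT p65 peaks 32.8% did, and over all KO p65 peaks 25.2%. With 1 mismatch the shares at the 731 sites and at induced sites were 60.5% and 39.7%, against 20.5% and 18.1% in windows 1 kb away. Of the 50 WT peaks without a WTLPS peak, 70% matched with 1 mismatch. Within each of 5 equal groups of WTLPS peaks ranked by −log10 q, the share was higher at the sites bound before LPS in groups 2 to 5, by 14.4, 20.1, 16.5 and 10.4 points, and in the weakest group it was 1 of 17 against 7.62%. Windows centred on WTLPS summits were used for this ranking and for all induced sites. The differences over all sites, here and for the other motifs below, thus set WT summits beside WTLPS summits.

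The sites with a match held 286 matches with 45 different sequences. GGGGATTTCC made up 32 of them, GGGACTTTCC 30, GGGGAATTCC 24, and GGGAAATTCC and GGGAATTTCC 23 each. GGGGATTTCC and GGGACTTTCC together were more common among matches here, at 11.2 and 10.5%, than among the 663 matches of induced sites, at 4.98 and 4.83%. Of the sites, 195 held 1 match, 34 held 2 and 7 held 3 or more. Within 100 bp, the nearest match lay a median of 29.5 bp from the summit.

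**Figure D1:**
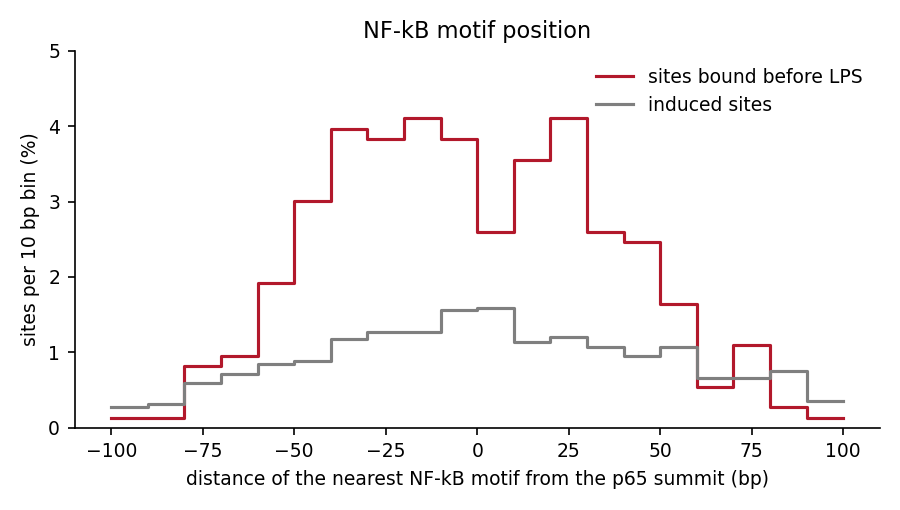
Distance in bp from the p65 summit to the nearest NF-κB match within 100 bp (horizontal axis) and percent of sites per 10 bp bin (vertical axis), for the 731 sites bound before LPS (red, WT summits) and the 4739 induced sites (grey, WTLPS summits). A match lay within 20 bp at 103 of the 305 red sites that had one within 100 bp.

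Of the other motifs, AP-1 (TGANTCA) was less frequent at sites bound before LPS than at induced sites, at 8.07% against 11.6%, with 2.599 and 3.18% in windows 1 kb away, and the difference was −3.51 points (−5.51 to −1.14). C/EBP (TTGCNNAA) matched 13.95 and 13.0%, PU.1 (AGAGGAAG) 5.75 and 4.49%, STAT (TTCNNNGAA) 5.20 and 4.87% and the interferon response element ISRE 1.78 and 2.74%, and the intervals of these 4 differences included 0. All were searched on both strands. Windows 1 kb away from sites bound before LPS held C/EBP in 3.01%, PU.1 in 1.505%, STAT in 2.94% and ISRE in 1.44%.

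The number of p65 fragments at the sites in WT and WTLPS is a description, since both lists chose them. The WT summits had 7 to 75 fragments with a median of 14, and the overlapping WTLPS peaks 6 to 162 with a median of 25. The fold enrichment, which is the fragment pileup over the local background, was a median of 1.53 times as high in WTLPS as in WT, was higher in WTLPS at 600 sites and at least 2 times as high at 210. Induced sites had a median of 12 fragments in WTLPS. The median site was overlapped by peaks in 15 of the 30 lists and no site in more than 23, and these counts include the WT and WTLPS p65 lists of the rule. At induced sites the median was 12 lists.

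At the edge of the rule, the 3 sites with the smallest overlap shared 51, 57 and 94 bp with the WTLPS peak and lay near Arl14, Aff1 and Vps41, with 10, 13 and 8 fragments in WT and 9, 10 and 9 in WTLPS. The 3 WT peaks that came closest without overlap lay 161, 467 and 616 bp from a WTLPS peak, near Rchy1, Cyba and Rap2a, with 10, 8 and 8 fragments. The median overlap was 243 bp, and the median share of the WT peak covered was 100%.

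The 10 strongest sites in WT all carried p65 in KO and KOLPS. The strongest lay in an intron of Rapgef2, an exchange factor for Rap GTPases (chromosome 3, 79173123 to 79173599), with 75 fragments without and 125 with LPS in CTCF-WT cells and 43 and 86 in CTCF-KO cells. The next lay outside genes, 101915 bp from the start of Parp11 (chromosome 6, 127351546 to 127352155), with 67, 56, 21 and 35. At the former the KOLPS value lay above WT, and at the latter the LPS value was below that without LPS in CTCF-WT but above it in CTCF-KO cells.

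The promoter site of Sod2, the mitochondrial superoxide dismutase (chromosome 17, 13009972 to 13010420), had 64 fragments in WT, 162 in WTLPS, 50 in KO, and 75 after LPS in KOLPS. LPS thus gave the larger number in each genotype, and CTCF-KO cells the smaller number with and without LPS. The site in an intron of Fpr3, a formyl peptide receptor gene (chromosome 17, 17900736 to 17901189), had 62, 107, 55 and 38, the only one of the 10 strongest besides that of Cd47 and that of Pdgfrb with fewer fragments in KOLPS than in KO.

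The remaining 6 of these 10 lay near Papss1 (58, 125, 43 and 64 fragments in WT, WTLPS, KO and KOLPS), near Zmynd15 and the chemokine gene Cxcl16 (56, 114, 43 and 57), in an intron of the growth factor receptor gene Pdgfrb (55, 71, 35 and 33), near Cd47, whose product restrains phagocytosis (54, 68, 43 and 41), near Lmo4 (50, 96, 36 and 45) and near Ets2, an ETS family transcription factor (46, 78, 28 and 55). These sites were ranked by their WT value, which alone tends to place the other libraries below it. All 10 carried an SMC1 peak in every condition, and the sites in Rapgef2, at Sod2 and in Pdgfrb had a CTCF peak in WT. Over all 731 sites, SMC1 overlapped 92.1, 97.7, 88.4 and 84.0% in WT, WTLPS, KO and KOLPS, and CTCF in WT 7.93%.

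The sites were then examined in CTCF-deficient cells. A KO p65 peak overlapped 333 of the 731 (45.6%, 42.0 to 49.2%), against a background of 43.1% over all WT p65 peaks, most of which are these sites. A KOLPS p65 peak overlapped 479 (65.5%, 62.0 to 68.9%), against 61.8% over all WT p65 peaks. Both overlapped 297 sites, KO alone 36, KOLPS alone 182 and neither 216 (29.5%, 26.4 to 33.0%). On the same sites, the share in KOLPS was 19.97 points higher than in KO (16.3 to 23.7). Of the 50 WT peaks without a WTLPS peak, 4 (8%, 3.16 to 18.8%) were overlapped in KO and 4 in KOLPS.

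**Figure D2:**
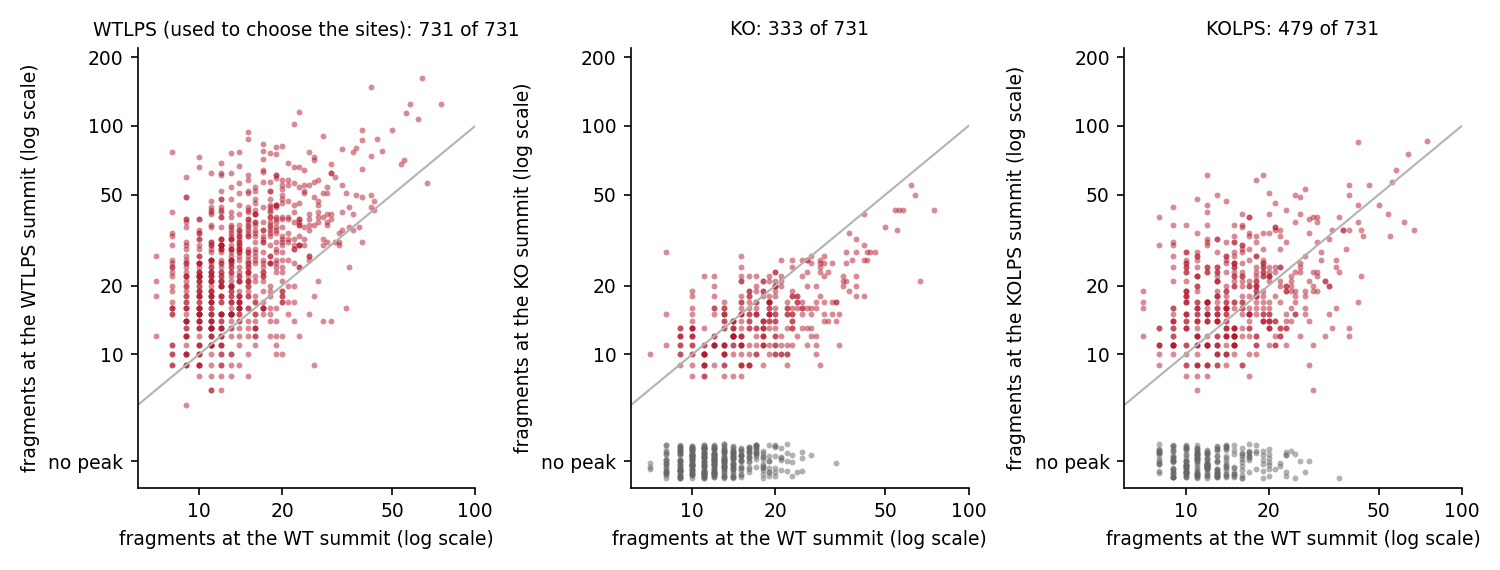
Fragments at the p65 summit in WT (horizontal axes) against those in WTLPS, KO and KOLPS (vertical axes) for the 731 sites, all on log scales; the grey line marks equal values and grey points along the bottom are sites without a peak in that list, spread at random within the strip. Most sites lie above the line in WTLPS, and in KO 333 sites have a peak, mostly below the line and mostly those with many fragments in WT.

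Measured on the WTLPS peaks so that they could be set beside induced sites, 45.5% of the sites bound before LPS were overlapped in KO and 1.81% of induced sites, a difference of 43.6 points (40.03 to 47.3). The background over all WTLPS p65 peaks was 7.61%. In KOLPS the shares were 65.7 and 16.1%, a difference of 49.6 points (45.9 to 53.1), and the background was 22.7%. Both sets were separated by the WT list, which is also a list of unstimulated cells, as is KO.

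The sites bound before LPS were stronger in WTLPS than induced sites: 462 of the 726 fell in the strongest of 5 equal groups of WTLPS peaks. Within that group, 81.4% of them and 48.0% of induced sites were overlapped in KOLPS, a difference of 33.4 points (27.9 to 38.4). From the weakest to the fourth group the KOLPS shares were 23.5 against 4.18%, 18.9 against 8.81%, 25.8 against 12.51% and 50 against 20.6%, and each interval of the difference lay above 0. Averaged over groups, the KOLPS difference was 29.3 points, below the 49.6 points without groups.

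**Figure D3:**
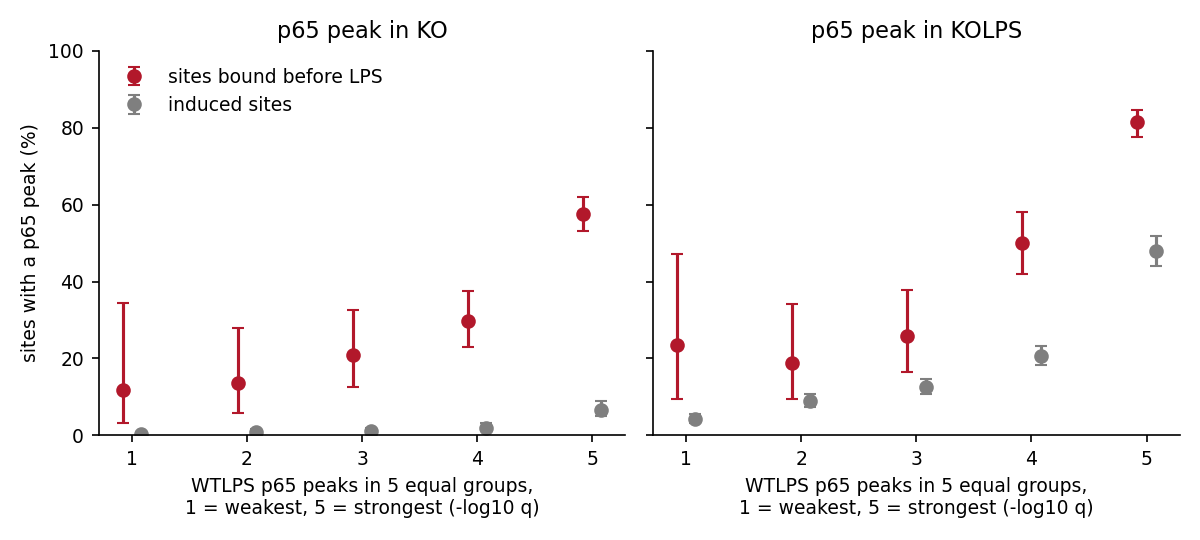
Percent of sites with a p65 peak in KO (left) and KOLPS (right) for WTLPS p65 peaks in 5 equal groups of rising −log10 q; points are shares of the sites bound before LPS (red) and of induced sites (grey) and bars are 95% Wilson intervals. In the strongest group 57.6% of red and 6.66% of grey sites had a KO peak.

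The other way round, 334 of the 504 KO p65 peaks (66.3%) lay at a site bound before LPS, 86 at an induced site, 4 at a WT peak without a WTLPS peak and 80 at no WT or WTLPS p65 peak. In KOLPS, 479 of 1752 (27.3%) lay at a site bound before LPS, 772 (44.1%) at an induced site and 497 (28.4%) at no WT or WTLPS p65 peak, with 4 more at a WT peak without a WTLPS peak.

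Detection in CTCF-KO cells followed the number of fragments in WT. In the 147 weakest sites, with 7 to 10 fragments, 21.1% were overlapped in KO and 47.6% in KOLPS, while in the 146 strongest, with 20 to 75, the shares were 86.3 and 87.7%. Sites found in both lists had a median of 18 fragments in WT and 36 in WTLPS, and sites found in neither 12 and 16. Sites with p65 in KOLPS alone had a median of 25 fragments in WTLPS, and those with it in KO alone 18.

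At the 297 sites with a peak in all 4 lists the fold enrichment in KO was a median of 0.837 times that in WT (quartiles 0.670 and 1.005) and lower at 204 of them. With LPS, KOLPS had a median of 0.623 times the WTLPS value (quartiles 0.482 and 0.830) and was lower at 249. In CTCF-KO cells the fold enrichment in KOLPS was a median of 1.27 times that in KO and higher at 222 of the 297. These sites had to pass a threshold in each list, and each ratio rests on 1 list a condition. The only one at least 2 times higher in KO than in WT, near Fth1, had 8 fragments in WT and shared its KO peak with a neighbouring site that had 36.

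The 8 strongest promoter sites with p65 in both KO and KOLPS were at Sod2, at Skil, a repressor of TGF-β signalling, at Gm13656 near Nfe2l2, the gene of the oxidative stress factor NRF2, and at B2m, Nadk, Rnf149, Cd74 and Cd302. Skil had 43 fragments in WT, 43 in WTLPS, 28 in KO, and 22 after LPS in KOLPS. The site near Nfe2l2 had 42, 74, 30 and 45, Nadk, an NAD kinase, 37, 50, 34 and 35, Rnf149, a ubiquitin ligase, 35, 36, 22 and 24, and Cd302, a C-type lectin, 33, 55, 17 and 32. B2m, the light chain of MHC class I, had 39, 31, 18 and 12, and Cd74, the invariant chain of MHC class II, 34, 16, 11 and 13. At B2m and Cd74 the WTLPS value was below that of WT, in contrast to Nadk, Cd302 and the site near Nfe2l2.

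Of the sites with p65 in neither KO nor KOLPS, the strongest lay in an intron of Tiam1, a Rac exchange factor (107787 bp from the start of Sod1), with 25 fragments in WT and 15 in WTLPS. It had no SMC1 peak in WT, KO or KOLPS and no H3K27ac peak in any condition. The next were in an intron of Prkce, a protein kinase C (23 and 38 fragments in WT and WTLPS), near Fam43a (22 and 25), near Efnb1, the ephrin-B1 gene (23 and 24), in an intron of Lrch1 (20 and 17), in an intron of Rbpms, an RNA-binding protein gene (20 and 12), far from Id2, an inhibitor of helix-loop-helix factors (20 and 50 at 198827 bp), and far from Marcks (19 and 11 at 181402 bp). None of the 8 lay at a promoter, and of all 216 sites with p65 in neither list 11.1% did. The site near Efnb1 was overlapped in only 3 of the 30 lists: p65 in WT and WTLPS, which the rule requires, and H3K4me1 in WTLPS.

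Of the sites found in KO but not in KOLPS, the strongest lay near Ptger4, a prostaglandin E2 receptor gene (36, 41 and 25 fragments in WT, WTLPS and KO), near Grpr (28, 14 and 12), near Ppargc1b (27, 21 and 15) and at the promoter of Zmiz2 (26, 9 and 13). At the latter 3 of them WTLPS had fewer fragments than WT. Of those found in KOLPS but not in KO, the strongest lay near Pag1, an adaptor of Src kinases (33, 42 and 20 fragments in WT, WTLPS and KOLPS), in an intron of Asb2 (27, 40 and 18), near the AP-1 gene Fosl2 (25, 77 and 15) and near N4bp1 (25, 26 and 23). Each of these 4 had at least as many fragments in WTLPS as in WT. Their fold enrichment was also higher in WTLPS, except near N4bp1, with 15.2 in WT and 14.6 in WTLPS.

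Cohesin was present at nearly all sites bound before LPS. An SMC1 peak overlapped 673 (92.1%, 89.9 to 93.8%) in WT, 714 (97.7%) in WTLPS, 646 (88.4%) in KO, and 614 (84.0%) after LPS in KOLPS. At induced sites the shares were 69.3, 86.5, 63.5 and 62.3%, so that the WT difference was 22.7 points (20.2 to 24.9), against a background of 72.4% over all WTLPS p65 peaks. The difference in WT was 20.05 to 27.7 points in each of the 5 strength groups. The median SMC1 peak at these sites ranked at the 76th percentile of the 63638 WT peaks by −log10 q, and that at induced sites at the 66.6th.

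Most of the sites with SMC1 also had it in CTCF-KO cells. Of the 673 sites with SMC1 in WT, 635 had it in KO (94.4%), and of the 714 with SMC1 in WTLPS, 613 had it in KOLPS (85.9%). Over all SMC1 peaks, 34.5% of those in WT were overlapped in KO and 23.3% of those in WTLPS in KOLPS. Counted as SMC1 peaks, 94 of the 97 at these sites that also met a CTCF peak in WT were overlapped in KO (96.9%), while 16.1% of the 34184 other SMC1 peaks with CTCF were. Without a CTCF peak, 535 of 568 (94.2%) and 55.0% of 28789 were.

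Over all SMC1 peaks, from the weakest to the strongest of 5 equal groups of the SMC1 list, the gap between those at sites bound before LPS and the others was 42.5, 44.1, 48.2, 57.2 and 63.7 points. It narrowed with strength among SMC1 peaks without CTCF. Among SMC1 peaks without CTCF, in the strongest of 5 equal groups of the SMC1 list all 214 at sites bound before LPS and 99.4% of the 1168 others were overlapped in KO. In the weakest group the shares were 60.7% of 28 and 25.4% of 9036, and in the third group 89.2 and 73.2%. The SMC1 libraries covered a background base with 5.404, 5.77, 5.34 and 4.50 fragments in WT, WTLPS, KO and KOLPS.

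CTCF itself overlapped few of the sites: 58 (7.93%, 6.19 to 10.1%) in WT, 48 in WTLPS, 11 in KO, and 8 after LPS in KOLPS. The WT share did not differ from that of induced sites beyond counting error, at 0.464 points (−1.45 to 2.76), and the background was 7.76%. In WTLPS, KO and KOLPS the background was 6.33, 1.81 and 1.04%. Of the 58 sites with CTCF in WT, 11 (19.0%) kept it in KO, against 23.7% of all WT CTCF peaks. Of these 58, 29 had p65 in KO (50%) and 37 in KOLPS (63.8%), and of the 673 without CTCF 45.2 and 65.7%. The differences, 4.83 points (−8.19 to 17.8) and −1.88 points (−15.2 to 9.86), have wide intervals. Within 10 kb of a WT CTCF peak, a distance chosen after the data were seen, 46.9% of sites had p65 in KO and 43.6% of the others.

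Active histone marks were also frequent. H3K27ac, a mark of active promoters and enhancers, overlapped 587 sites (80.3%, 77.3 to 83.0%) in WT, 618 (84.5%) in WTLPS, 632 (86.5%) in KO, and 579 (79.2%) after LPS in KOLPS. In WT this was 18.9 points (15.5 to 21.9) more than at induced sites, with a background of 64.6%. The background was 75.4% in WTLPS, 66.2% in KO and 66.3% in KOLPS. Of the 587 sites, 563 (95.9%) had H3K27ac in KO, and of the 618 in WTLPS, 546 (88.3%) in KOLPS, whereas over all H3K27ac peaks 47.2 and 41.2% were overlapped. Most H3K27ac peaks at the sites were strong: 506 of 600 fell in the strongest of 5 equal groups of the WT list, where 99.6% of them and 90.6% of the others were overlapped in KO, and in the strongest group of the WTLPS list 99.3 and 85.6% were overlapped in KOLPS. A further 69 sites had it in KO and not in WT. Background coverage by H3K27ac fragments was 1.17 per base in WT, 1.198 in WTLPS, 0.748 in KO and, after LPS, 0.801 in KOLPS, and its part in these counts was not tested. The median H3K27ac peak at the sites ranked at the 95.6th percentile of the WT list.

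H3K4me1, which marks enhancers, overlapped 92.9% of sites in WT (background 89.1%), 92.7% in WTLPS, 88.8% in KO and 74.8% in KOLPS. H3K4me3, which marks promoters, overlapped 172 (23.5%) in WT against a background of 21.5%, 138 in WTLPS, 167 in KO and 102 in KOLPS. H3K27me3, a mark of Polycomb repression, overlapped 7 sites (0.958%) in WT against a background of 2.2%, 2 in WTLPS, 1 in KO and 0 in KOLPS, where the 95% interval reaches 0.523%. Its background in WTLPS, KO and KOLPS was 0.604, 1.19 and 0.128%. SMC1, H3K27ac and H3K4me1 all overlapped 523 sites (71.5%) in WT, and 3 had none of the 3.

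STAT5, the factor activated by GM-CSF, overlapped 287 sites in WT (39.3%, 35.8 to 42.8%), against a background of 27%, and 228 in KO (31.2%), against 21.4%. At induced sites the WT share was 24.9%, a difference of 14.4 points (10.7 to 18.2), but in the 3 weakest strength groups the intervals of the difference included 0. Of the 287 sites, 206 (71.8%) had STAT5 in KO, compared with 64.8% of all WT STAT5 peaks.

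**Figure D4:**
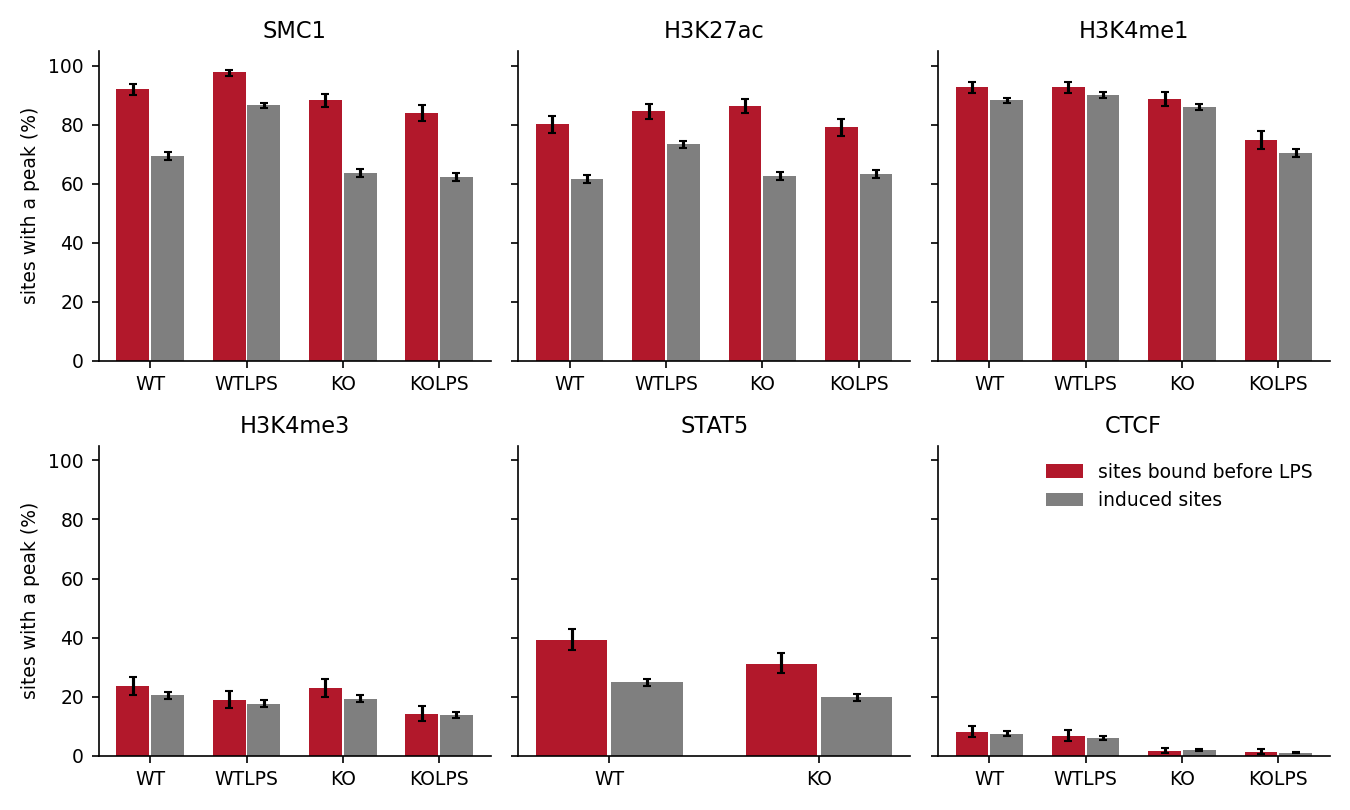
Percent of sites with a peak of each antibody (vertical axes) in each condition (horizontal axes) for the 731 sites bound before LPS (red) and the 4739 induced sites (grey); bars start at 0 and error bars are 95% Wilson intervals. SMC1, H3K27ac and STAT5 were more frequent at the red sites in every condition measured, and CTCF was at most 7.93% of either set.

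Sites that had p65 in KO and KOLPS differed from those that had it in neither. STAT5 in WT overlapped 50.2% of the former and 25.9% of the latter, a difference of 24.2 points (15.8 to 32.0). SMC1 in WT overlapped 96.6 and 83.8% (12.8 points, 7.74 to 18.5), and SMC1 in KOLPS 92.9 and 69.0% (23.9 points, 17.2 to 30.8). H3K27ac in KOLPS overlapped 89.2 and 64.8% (24.4 points, 17.1 to 31.7), and promoters held 21.9 and 11.1% (10.8 points, 4.25 to 16.9). The NF-κB match was present in 35.4 and 29.2%, a difference of 6.19 points whose interval included 0 (−2.06 to 14.1), as did that of CTCF in WT, at 0.673 points (−4.33 to 5.28).

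The former were also stronger in WT, and the differences above were not adjusted for this. As another contrast, sites with and without a feature were compared within 5 groups of WT fragment number, and the differences averaged. Strength in WTLPS, with a median of 36 fragments at the former and 16 at the latter, was not grouped. Sites with SMC1 in WT had p65 in KOLPS in 68.4% of cases and those without in 32.8%, a difference of 35.6 points (22.3 to 46.8) that was 33.2 within groups. For STAT5 the shares were 77.0 and 58.1%, with 18.9 points (12.01 to 25.4) and 15.3 within groups. For promoters they were 75.7 and 63.2%, with 12.54 points (3.83 to 20.1) and 11.6 within groups. H3K27ac in WT gave 12.4 points in KOLPS and 11.1 within groups. In KO the differences were 23.3 points for SMC1 and 18.1 within groups, and for STAT5 16.2 and 9.43. Promoters gave 10.9 and 8.91 points in KO, and H3K27ac 9.165 and 6.27. The NF-κB match gave 66.5 and 65.1% in KOLPS, and in KO 51.3 and 42.8%, a difference of 8.44 points (0.722 to 16.1) that was 3.21 within groups.

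Position in the genome set the sites apart little. Promoters, within 2.5 kb of a gene start, held 136 sites (18.6%), exons 23 (3.15%), introns 287 (39.3%) and the space outside genes 285 (39.0%). At induced sites the shares were 17.9, 2.83, 41.5 and 37.8%, and the interval of each difference included 0. The median distance to the start of the nearest protein-coding gene was 23044 bp, and 28835 bp for induced sites. The median GC content of the summit windows was 47.5 and 45.5%, and 8.76 and 12.1% of summits lay in soft-masked repeats. The sites were spread over all chromosomes but Y.

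The sites often lay in broad acetylated regions. When neighbouring WT H3K27ac peaks were joined across gaps of up to the usual stitching distance for super-enhancers, the largest 5% of the resulting 15472 regions, each of at least 48992 bp, held 314 sites (43.0%), and 30.3% of induced sites, a difference of 12.7 points (8.91 to 16.5). Another of the 731 sites lay within 50 kb of 152 (20.8%), and an induced site within 50 kb of 443 (60.6%). Linked at that distance, the largest group had 4 sites, on chromosome 19 from 9938766 to 9978631, upstream of Fth1, the ferritin heavy chain gene. They had 8 to 36 fragments in WT and 51 to 77 in WTLPS, and all 4 had p65 in KO and KOLPS.

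The sites were next assigned to gene groups drawn up with earlier results of these data known. A site lay within 50 kb of the start of 983 of 21938 protein-coding genes (4.48%) and within 2.5 kb of 94 (0.428%). An induced site lay within 50 kb of 3990 of these genes (18.2%), of which 562 also had a site bound before LPS. Of the genes of NF-κB subunits and feedback regulators, 14 of 20 had a site within 50 kb and 8 at the promoter, a further 5 had only an induced site within 50 kb, and the 16 different sites behind them had p65 in KO at 12 and in KOLPS at 13. This was the highest share of the lists at 50 kb, but within 100 kb antigen presentation had 17 of 20 and this list 14. Over all 731 sites, 45.6% had p65 in KO and 65.5% in KOLPS, and the counts of sites in each list stand beside these shares.

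**Figure D5:**
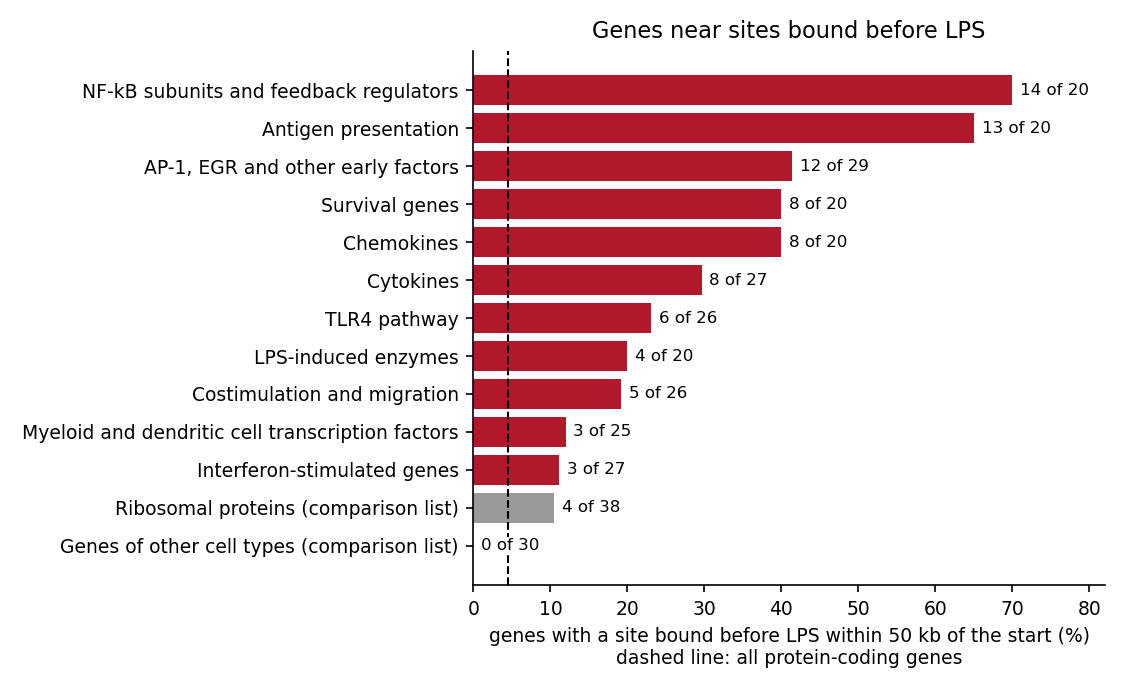
Percent of genes of each list with a site bound before LPS within 50 kb of the start (horizontal axis), with the number of genes beside each bar; grey bars are comparison lists and the dashed line is the share of all 21938 protein-coding genes, 4.48%. Genes of NF-κB subunits and feedback regulators reach 14 of 20 and genes of other cell types 0 of 30.

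Among the genes of NF-κB subunits, the promoter of Rel had 11 fragments in WT, 24 in WTLPS, 22 in KO, and 27 after LPS in KOLPS. That of Nfkb2 had 17, 32, 17 and 20. A site in an intron of Nfkb1, 48636 bp from the start of its longest transcript, had 15, 52, 15 and 24. A second Nfkb1 site (chromosome 3, 135691397 to 135691712) spanned the annotated upstream end of the gene, at 135691547, and had 19, 26, 17 and 23. It was counted as an exon site and not as a promoter site, because the longest transcript starts 69372 bp away. KO was below WT at the last of these 4 sites, equal to it at Nfkb2 and at the intronic Nfkb1 site, and above it at Rel.

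The IκB genes, whose products hold NF-κB in the cytoplasm, had sites as well. Nfkbia, which encodes IκBα, had 2 promoter sites, with 19, 28, 21 and 23 fragments at 157 bp from the start and 30, 14, 22 and 40 at 715 bp. Its second site thus had fewer fragments in WTLPS than in WT, and more in KOLPS than in KO. The promoter of Nfkbib had 12 in WT, 7 in WTLPS, 9 in KOLPS and no peak in KO, and that of Nfkbie 15 in WT, 14 in WTLPS and none in KO or KOLPS.

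Tnfaip3, which encodes the ubiquitin-editing enzyme A20, a brake on NF-κB signalling, had a promoter site 60 bp from the start with 29 fragments in WT, 51 in WTLPS, 26 in KO, and 40 after LPS in KOLPS. A second site in its intron had 26, 57, 26 and 24. The promoter of Tnip3, an A20-binding protein, had 27, 45, 12 and 16, and that of Tnfaip2 22, 30, 16 and 24. Of the other members, Zc3h12a, an RNase that degrades cytokine mRNA, had 15, 23, 17 and 13 in an intron, Ikbke, a kinase gene, 15, 28, 21 and 22 in an intron, and Bcl3, an atypical IκB, 16, 17, 18 and 25 at 22036 bp, while Tnip1 and Tifa had sites of 9 and 10 fragments in WT and none in KO or KOLPS.

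In the TLR4 pathway, 6 of 26 genes had a site within 50 kb and 1 at the promoter, and 9 more had only an induced site. The promoter site of Tlr2, a receptor for bacterial lipoproteins, had 16 fragments in WT, 14 in WTLPS, 15 in KOLPS and none in KO. Irak3, a negative regulator of the pathway, had 24, 52 and 14 in WT, WTLPS and KOLPS in an intron, and no KO peak. A site 17817 bp from Cd14, the LPS co-receptor gene, had 9, 49 and 37 and no KO peak. A site 24584 bp from the start of Tlr4, within the gene, had 14 and 24 fragments in CTCF-WT cells without and with LPS but no peak in KO or KOLPS. Irak2 had 3 sites, the closest with 14 and 9 in CTCF-WT cells and no peak in CTCF-KO cells. Of all 3 Irak2 sites, 1 had p65 in KO and 1 in KOLPS. Of the 8 different sites of this list, 1 had p65 in KO and 5 in KOLPS, against 45.6 and 65.5% of all 731 sites.

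Of 27 cytokine genes, 8 had a site within 50 kb and 16 more had only an induced site. The Tnf promoter had 12 fragments in WT, 61 in WTLPS, 9 in KO, and 24 after LPS in KOLPS. This site was also the closest to Lta and Ltb. The Il1a promoter site had 20, 36, 20 and 23, and a site 9778 bp from the start of Il1b 13, 23, 17 and 19. Il10, which encodes an anti-inflammatory cytokine, had 15, 26 and 11 in WT, WTLPS and KOLPS at 4345 bp, and the Tnfsf15 promoter 9 and 10 in WT and WTLPS only. Of the 10 different sites, 5 had p65 in KO and 9 in KOLPS, against 45.6 and 65.5% of all 731 sites.

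Of 20 chemokine genes, 8 had a site. The Ccl3 promoter had 16, 52, 15 and 41 fragments in WT, WTLPS, KO and KOLPS, and this site is also the one nearest Ccl4. Cxcl10 had 14, 27 and 11 in WT, WTLPS and KOLPS at its promoter and no KO peak. A site 13682 bp from Ccl5 had 15, 21, 14 and 12 and was also the closest one to Ccl6 and Ccl9. The 8 genes shared 5 sites, 3 with p65 in KO and all 5 in KOLPS, against 45.6 and 65.5% of all 731 sites.

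Of 20 survival genes, 8 had a site. Of the 10 different sites, 8 had p65 in KO and 9 in KOLPS, against 45.6 and 65.5% of all 731 sites. The promoter of Birc3, an inhibitor of apoptosis that acts as a ubiquitin ligase in NF-κB signalling, had 32, 34, 25 and 21 fragments, and that of Bcl2a1b, a BCL2 relative, 13, 24 and 14 in WT, WTLPS and KOLPS with no KO peak. Bcl2a1a and Bcl2a1b are near-identical copies, so the assignment of reads between them is uncertain. Traf2, an adaptor of TNF receptors, had 13, 13 and 11 in WT, WTLPS and KO in an intron and no KOLPS peak.

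Of 29 genes of AP-1, EGR and other early factors, 12 had a site, but 2 at the promoter: Maff with 12, 11 and 17 fragments in WT, WTLPS and KOLPS, and Ier5 with 10 and 13 in WT and WTLPS alone. Of their 14 different sites, 5 had p65 in KO and 11 in KOLPS, against 45.6 and 65.5% of all 731 sites. Zfp36, which encodes the mRNA-destabilising factor TTP, had 12, 15, 11 and 15 in WT, WTLPS, KO and KOLPS at 2862 bp, and Klf2, a zinc finger factor gene, 13, 32 and 21 in WT, WTLPS and KOLPS at 3516 bp.

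Genes of antigen presentation had a site in 13 of 20 cases, but 7 different sites accounted for these, since the MHC genes lie close together: a site at chromosome 17, 34174178 to 34174419, with 10 fragments in WT, 9 in WTLPS and no CTCF-KO peak, was the closest one for Tap1, Tap2, Psmb8, Psmb9, H2-DMa and H2-DMb1. The H2-K1 promoter had the same 10 and 9 fragments and likewise no CTCF-KO peak. With Cd74 and B2m, 3 of the 20 genes had a promoter site. Of the 7 sites, 4 had p65 in KO and 4 in KOLPS, against 45.6 and 65.5% of all 731 sites.

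Smaller shares were seen in the remaining lists. LPS-induced enzymes had a site in 4 of 20 cases, with the promoter of Acod1, which makes itaconate, at 23, 54 and 14 fragments in WT, WTLPS and KO and no KOLPS peak. Further Acod1 sites 9718 and 30863 bp from the start had 9 and 14 fragments in KOLPS and no KO peak. A site 23972 bp from Ch25h, the cholesterol 25-hydroxylase gene, had 9, 60 and 11 in WT, WTLPS and KOLPS. Genes of costimulation and migration had 5 of 26, with the death receptor gene Fas at 18, 40, 14 and 24 at the promoter and the chemokine receptor gene Ccr7 at 14, 29 and 19 in WT, WTLPS and KOLPS at 9910 bp. Interferon-stimulated genes had 3 of 27, with Gbp2, a guanylate-binding protein gene, at 10, 15, 14 and 15 at the promoter. Myeloid and dendritic cell transcription factors had 3 of 25, none at the promoter, and 16 more had only an induced site. Of the comparison lists, 4 of 38 ribosomal protein genes and 0 of 30 genes of other cell types had a site, the former none at the promoter.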

How the data were processed

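ChIP-seq was done on BMDCs of 4 conditions, and 30 of 34 samples have a peak list; the 4 inputs served as controls. The authors aligned reads to mm10 and called peaks with MACS2; the submitters' processing notes name BWA 0.7.12, Picard 1.77, MACS2 2.1.2 and deepTools 3.1.3. For each peak the authors deposited a summit, a fold enrichment over background (a ratio), and p- and q-values as −log10. The p65 lists are named as filtered against problem regions, and the CTCF and SMC1 lists end near a −log10 p of 7. The study describes biological replicates, peak calling per sample and replicate, and merging of replicates once they were found reproducible; which of these the 1 list per antibody and condition holds is not stated for it. Results of 1 marker list are not reported here. Thresholds differ between antibodies, so marks were not ranked against each other.

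All steps ran in Python 3.11.15 (numpy 2.4.6, pandas 2.3.3, scipy 1.17.1, pysam 0.24.0), and functions were tested on simulated data. Sequences came from the RefSeq copy of GRCm38. Lists were overlapped by at least 1 bp. Summit fragments were recovered as the whole number that gave back fold and −log10 p within 0.002, which succeeded for 100% of p65 peaks; coverage is the most frequent background level, and it rises with both number and length of fragments. Promoters reached 2.5 kb up- and downstream from where the longest transcript begins, for 55413 GENCODE genes; exons, introns and the space outside genes followed, by summit. Genes were counted within 50 kb. The split of SMC1 peaks by CTCF and strength and the 10 kb CTCF distance were added after seeing the data. Sites and lists were chosen with earlier results of these data known. Sites described singly were the 10 strongest in WT by −log10 q, the strongest 8 promoter sites with p65 in KO and KOLPS, the strongest 8 with it in neither, the strongest 4 with it in KO or in KOLPS alone, listed genes with a site at the promoter or the closest others, and those at the edge of the rule. Windows printed as sequence were the first 5 of these by presence of a match and then WT rank, in each of 2 classes, chromosome 18 left out. Alternatives were other overlaps, thresholds, coverage, promoter widths, motif windows and distances.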

Additional observations from a re-analysis of the deposited data

How the results depend on the processing

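The number of sites stayed within 1.5 times of 731 under every alternative. The share with p65 in KO and KOLPS fell to 38.4 and 60.7% with a partner −log10 q of at least 5. The excess over induced sites moved to 22.7 (KO) and 33.9 points (KOLPS) when 50% of the site had to be covered, to 37.6 points (KO) with −log10 q of at least 5 and to 29.3 points (KOLPS) within strength groups. At a partner −log10 p of at least 10, SMC1 covered 85.2% of sites in WT, H3K27ac 71.0% with an excess of 24.1 points, H3K4me3 19.0% and STAT5 30.0%, and H3K4me1 and H3K27me3 0%, with a difference of 0, since 44 of 94694 and 31 of 96475 peaks of these broad lists reach it. When the mark had to cover the summit, H3K27ac fell to 64.98%, H3K4me1 to 90.6%, H3K4me3 to 19.0% and CTCF to 5.06%. With 50% covered, the values were 65.3% (H3K27ac), 19.3% (H3K4me3) and 4.65% (CTCF), the SMC1 excess was 25.1 points and the CTCF difference turned to −0.223 points. Within strength groups, the excess was 1.83 points for H3K4me1 and 10.3 for H3K4me3. A promoter of 1 kb held 10.5% of sites (42.7% then lay outside genes), and starts of all transcripts 25.03% (exons 1.78%, introns 35.3%). Windows of 100 bp to either side held the NF-κB match in 41.7%, AP-1 in 16.1%, PU.1 in 9.44%, C/EBP in 22.8%, STAT in 9.44% and ISRE in 3.97%, and 1 mismatch gave 60.5% for NF-κB. Within 25 and 100 kb lay 548 and 1777 genes. At 100 kb, costimulation genes with a site rose from 5 to 8 and interferon-stimulated genes from 3 to 6, and at 25 kb myeloid factors fell from 3 to 1 and ribosomal protein genes from 4 to 0. The other 62 comparisons of main results and 22 of gene lists stayed within these limits. The cause of these shifts was not tested beyond the construction of each alternative. No analysis paired by replicate was possible because each condition has 1 list per antibody, and KOLPS against KO was paired by site only. Sites with few fragments are the ones whose absence from a list says least.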
